A study of Arabidopsis thaliana with 8 samples.

Results

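The OVATE family proteins, or OFPs, are a plant-specific family named after the tomato fruit shape gene OVATE. Of the 18 Arabidopsis genes that the RefSeq gene table names as OFPs, 10 are described here: OFP1, OFP2, OFP4, OFP5, OFP7, OFP8, OFP12, OFP13, OFP14 and OFP16. They were chosen by their locus numbers with the measured values of this comparison known, namely the signal over the 75th percentile on the arrays of both genotypes, so their differences between the genotypes are given as a description and without p-values. They were read by 11 probes among the 25410 loci with a probe, and 8 of the 10 were bright enough to enter the fit across 19609 genes.

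RNA was profiled in 10 cm stems of Arabidopsis thaliana Col-0 on 8 single-colour Agilent arrays, 4 for each of 2 genotypes. The plants called CEF2-VP16 nst1 nst3 carried the construct NST3pro:CEF2-VP16:HSP in the nst1-1 nst3-1 background, and the plants called nst1 nst3 carried the nst1-1 and nst3-1 alleles alone. All 8 arrays therefore come from plants labelled as carrying mutant alleles of NST1 and NST3, the paired NAC regulators needed for thickened fiber walls. In the construct the NST3 promoter, active in fibers, drives an AP2/ERF factor fused to the viral activation domain VP16. The labels name this factor CEF2 and the design text names it ERF035. The number of transgenic lines is not stated in the sources used here. Nor do the labels tie each array to plants of its own, so p-values cover the spread between these 8 samples alone, part or all of which may be technical.

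OFPs share a C-terminal OVATE domain, and most of the Arabidopsis proteins tested act as repressors of transcription. They bind homeodomain proteins of the TALE class, which comprises the KNOX and BEL1-like factors. With one of these, KNAT7, OFP1 and OFP4 form a complex that acts in secondary wall formation. In tomato, OFPs also bind TRM proteins, which recruit TON1 and a phosphatase with the subunit TON2 to cortical microtubules, and this pairing sets organ shape. Overexpression of OFPs in Arabidopsis gives short, rounded organs. It has been used to sort the genes into class I (among them OFP1, OFP2, OFP4, OFP5 and OFP7), class II (among them OFP8) and class III (among them OFP13, OFP14, OFP15, OFP16 and OFP18).

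Levels are given as log2 of the probe's processed signal over the 75th percentile of its array, so that 0 is the 75th percentile. Signals below 0.01 of that percentile were set to a floor of -6.64, and values at the floor have no order among themselves. The 75th percentile lay between 2344 and 3255 units on the CEF2-VP16 nst1 nst3 arrays and between 2774 and 3642 units on the nst1 nst3 arrays. ERF035 read 4.05 to 4.27 in CEF2-VP16 nst1 nst3 stems and -5.87 to -2.38 in nst1 nst3 stems. The NST3 probe read -0.10 to 0.48 in CEF2-VP16 nst1 nst3 stems and 0.19 to 1.18 in nst1 nst3 stems, and the NST1 probe read -3.97 to -3.04 in CEF2-VP16 nst1 nst3 stems and -3.39 to -2.58 in nst1 nst3 stems. Both were well above background on all 8 arrays, and where they lie relative to the mutations is not known here, so they do not check the labels. Each genotype had its own slide and scan, so an effect of the slide cannot be told apart from one of the genotype. The spread among arrays was wider in nst1 nst3, where correlations between arrays over 19609 genes ran from 0.953 to 0.987, against 0.987 to 0.994 in CEF2-VP16 nst1 nst3. In whole stems, more cells of a type and more RNA per cell cannot be told apart.

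Most of the detected OFP genes read higher with the construct. Of the 8 members in the fit, 7 lay past the threshold of an adjusted p under 0.05 and were higher in CEF2-VP16 nst1 nst3. These were OFP1, OFP2, OFP7, OFP8, OFP12, OFP13 and OFP16, while OFP5 lay near 0. No member was called lower. The same threshold called 29.5% of all 19609 genes higher, 24.8% lower and 54.2% in either direction. For the same 7 members the arrays of the genotypes did not overlap, as was so for 27.9% of all genes with higher and 22.7% with lower values. The members' differences ran from -0.04 to 2.73 log2 units with a median of 1.79, beside a median of 0.03 over all genes tested. Because the contrast was known when the members were chosen, nothing is read from these counts. OFP2, OFP7 and OFP8 entered the fit only through the genotype in which they are high. They were well above background on 2, 0 and 3 of the 4 nst1 nst3 arrays, in that order. OFP4 and OFP14 were too dim to enter the fit. Without a filter on dim probes the median member difference was 1.29.

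**Figure D1:**
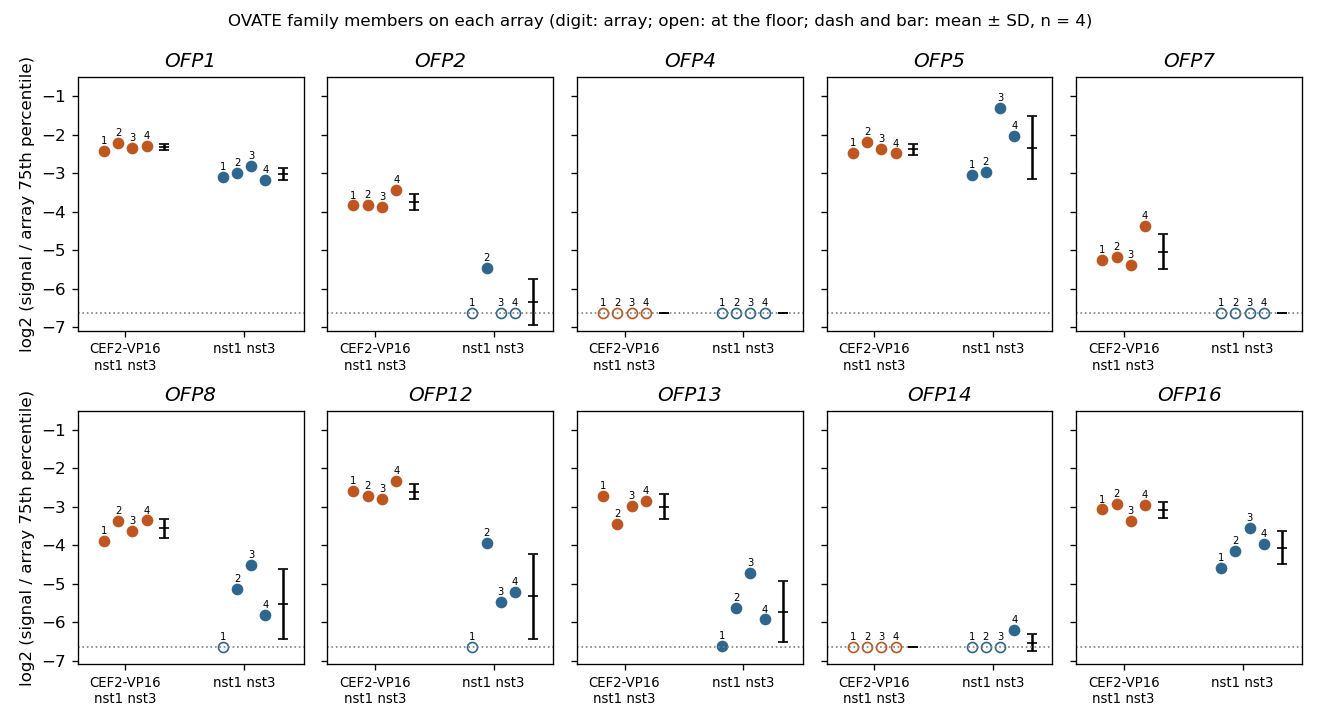
Level of each of the 10 OVATE family members on each array, in log2 units relative to the 75th percentile (vertical axis), with CEF2-VP16 nst1 nst3 at the left and nst1 nst3 at the right of each panel. Digits give the array number, open circles values at the floor of -6.64 (dotted line), and the dash and bar the mean ± SD of 4 arrays; OFP13 is shown by its brighter probe. OFP2, OFP7, OFP8, OFP12 and OFP13 stand apart between the genotypes, OFP1 and OFP16 by less, OFP5 overlaps, and OFP4 and OFP14 lie at or near the floor.

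Class I held the best known members. OFP1 (AT5G01840), which represses the gibberellin synthesis gene GA20OX1 and restrains cell elongation, read -2.43, -2.21, -2.33 and -2.29 in CEF2-VP16 nst1 nst3 stems, against -3.10, -2.98, -2.82 and -3.18 in nst1 nst3 stems. All 4 arrays with the construct were above all 4 without it, and the spread within each genotype was small. The means were -2.32 ± 0.09 and -3.02 ± 0.16 (SD, n = 4 each). The difference was 0.70 ± 0.10 log2 units (SE, n = 4 per group), a 1.63-fold higher level with the construct. It was 0.26 with scaling on the spike-in probes, RNA standards added before labelling.

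OFP2 (AT2G30400) differed more. It read -3.84, -3.82, -3.88 and -3.42 in CEF2-VP16 nst1 nst3 stems, against -6.64, -5.46, -6.64 and -6.64 in nst1 nst3 stems. Of the nst1 nst3 arrays only array 2 was above the floor, and the probe was called well above background by the scanner software on 2 of those 4 arrays and on all 4 arrays with the construct. The difference was 2.61 ± 0.28 (SE), or 6.09-fold. Its size depended on how low signals were treated, with 3.59 for a floor of 0.001 in place of 0.01 and 1.80 for normexp background correction.

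OFP7 (AT2G18500) was detected only with the construct. It read -5.25, -5.17, -5.38 and -4.37 in CEF2-VP16 nst1 nst3 stems and lay at the floor, not well above background, on all 4 nst1 nst3 arrays. The processed signals were 62.7 to 117 units with the construct and 4.75 to 11 units without it. On this scale OFP7 was thus at least 3.04-fold higher in CEF2-VP16 nst1 nst3. The bound sets its mean against the dimmest signal that counted as well above background, which lay at the floor. The bound does not hold across settings. The fitted difference was 1.60 log2 units, against 1.36 with spike-in scaling and 1.41 with normexp background correction. It was 1.38 without CEF2-VP16 nst1 nst3 array 4 and 4.03 with a floor of 0.001.

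OFP5 (AT4G18830), which restrains the homeodomain pair of BLH1 and KNAT3 in the embryo sac, was the exception among the detected members. It read -2.46, -2.18, -2.37 and -2.48 in CEF2-VP16 nst1 nst3 stems, against -3.03, -2.97, -1.31 and -2.02 in nst1 nst3 stems. The construct's arrays lay inside the range of the nst1 nst3 arrays, of which arrays 3 and 4 were above and arrays 1 and 2 below them. The means were -2.37 ± 0.14 and -2.33 ± 0.83 (SD, n = 4 each), and the difference was -0.04 ± 0.37 (SE). The sign turned with the choice of arrays, from 0.30 without nst1 nst3 array 3 to -0.27 without nst1 nst3 array 1. OFP4 (AT1G06920), the partner of OFP1 in the complex with KNAT7, was not well above background on any of the 8 arrays. Its processed signal was 4.76 to 7.59 units in CEF2-VP16 nst1 nst3 stems and 5.56 to 8.15 units in nst1 nst3 stems, so that no difference could be measured.

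OFP8 (AT5G19650), the class II member, read -3.88, -3.36, -3.63 and -3.35 in CEF2-VP16 nst1 nst3 stems, against -6.64, -5.14, -4.52 and -5.82 in nst1 nst3 stems. The nst1 nst3 arrays were spread widely, with array 1 at the floor and array 3 nearest to the construct's arrays. The difference was 1.97 ± 0.41 (SE), or 3.93-fold, and leaving out any single array moved it between 1.60 and 2.31. OFP12 (AT1G05420), to which no class is assigned here, read -2.58, -2.71, -2.79 and -2.32 with the construct, against -6.64, -3.95, -5.47 and -5.23 in nst1 nst3 stems. Its nst1 nst3 arrays had the widest spread of the 8 members in the fit, with an SD of 1.11 against 0.21 in CEF2-VP16 nst1 nst3. The difference was 2.72 ± 0.49 (SE), or 6.59-fold. It ran from 2.28 without nst1 nst3 array 1 to 3.18 without nst1 nst3 array 2.

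In class III, OFP13 (AT5G04820) differed about as much as OFP12. Its brighter probe read -2.71, -3.45, -2.99 and -2.85 in CEF2-VP16 nst1 nst3 stems, against -6.63, -5.63, -4.73 and -5.93 in nst1 nst3 stems. All values of the construct lay above the highest nst1 nst3 value, that of array 3. The difference was 2.73 ± 0.37 (SE), or 6.63-fold, and 1.78 with normexp background correction. The order among OFP2, OFP7, OFP12 and OFP13 depended on the setting. The highest value was that of OFP7 with a floor of 0.001 (4.03), of OFP12 with normexp correction (2.03) and of OFP2 with spike-in scaling (2.35). A second OFP13 probe stayed at the floor on all 8 arrays, with 6.50 to 28.6 units in CEF2-VP16 nst1 nst3 stems and 9.34 to 18.1 units in nst1 nst3 stems. It was well above background on 1 array with the construct, so the difference of OFP13 rests on 1 probe.

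OFP16 (AT2G32100) read -3.07, -2.92, -3.37 and -2.96 in CEF2-VP16 nst1 nst3 stems, against -4.58, -4.14, -3.56 and -3.97 in nst1 nst3 stems. The genotypes did not overlap, but array 3 of nst1 nst3 came close to the lowest array with the construct. The difference was 0.98 ± 0.21 (SE), or 1.97-fold, and 0.54 with spike-in scaling. OFP14 (AT1G79960) was dim in both genotypes and pointed the other way. It was well above background on no CEF2-VP16 nst1 nst3 array and on 3 of the 4 nst1 nst3 arrays, with processed signals of 9.65 to 12.8 units against 19.4 to 49.3 units. Only nst1 nst3 array 4, at -6.21, was above the floor, and the bound was 1.02-fold lower with the construct.

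**Figure D2:**
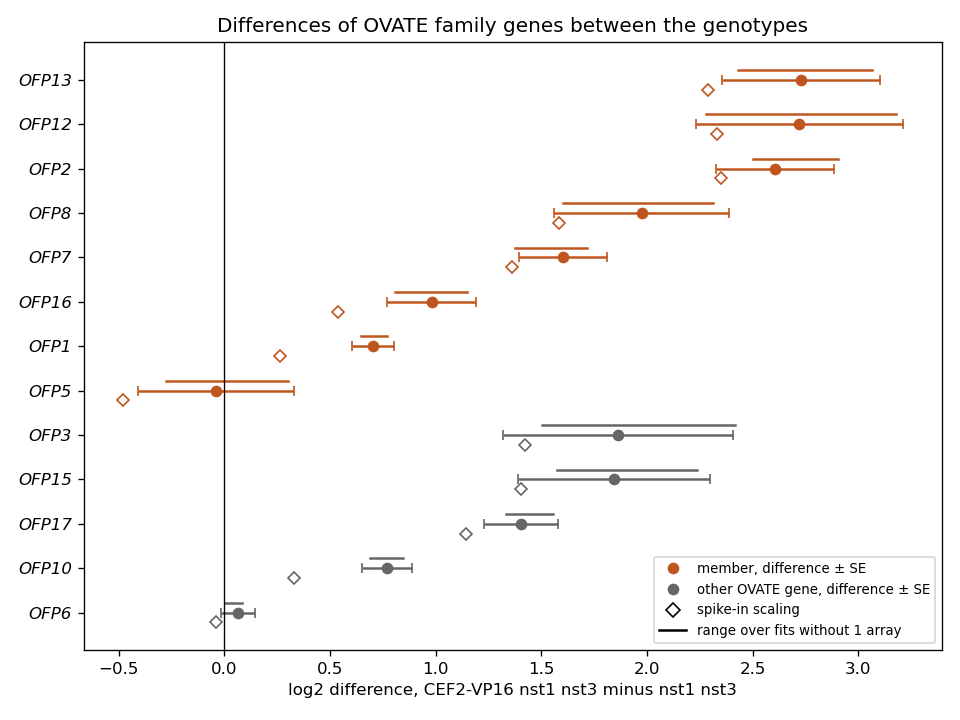
Difference of each OVATE family gene in the fit, CEF2-VP16 nst1 nst3 minus nst1 nst3 in log2 units (horizontal axis), with members above and other OVATE genes below. Circles with bars are the difference ± SE (n = 4 per group), diamonds the difference with spike-in scaling, and the upper lines the range over fits that left out 1 array; OFP5 and OFP6 lie near 0, and the other 11 genes lie to the right of 0 in each of these settings.

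The scale matters to the smaller differences. Spike-in scaling moved the median of all genes to -0.39 log2 units, from 0.03, and gave 2100 genes higher and 7851 lower in CEF2-VP16 nst1 nst3, against 5776 and 4858 with the 75th percentile. Under it 5 of the 8 members stayed past the threshold, where 10.7% of all genes were called higher and 40.0% lower. OFP2, OFP12 and OFP13 then differed by 2.35, 2.33 and 2.29. OFP5 read -0.48 on that scale.

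The nst1 nst3 arrays differed among themselves in a way that touches the family. The SD was larger in nst1 nst3 than in CEF2-VP16 nst1 nst3 for 7 of the 8 members, the exception being OFP7, whose nst1 nst3 values all lay at the floor. Among the 7 members with a nst1 nst3 value above the floor, array 3 was the highest nst1 nst3 array for 5 and array 2 for 2. A list of 8 touch and wound genes, among them TCH4 and JAZ7, also set array 3 apart. Its mean level was -3.20, -2.22, -3.02 and -2.31 on the CEF2-VP16 nst1 nst3 arrays, against 4.67, 4.40, 0.12 and 3.62 on the nst1 nst3 arrays. All 8 of these genes were lower in CEF2-VP16 nst1 nst3, with a median difference of -6.33, where 24.8% of all genes were called lower. This list too was chosen with earlier results of these data known, so its count is a description. Array 3 was not the lowest for each gene, as TCH3 read 5.45 there and 5.03 on nst1 nst3 array 4. The part of the touch and wound genes in the OFP values was not tested. Without nst1 nst3 arrays 2 and 3, OFP8 differed by 2.68, OFP12 by 3.33, OFP13 by 3.28 and OFP5 by 0.16, and the same number of members, 7, lay past the threshold.

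**Figure D3:**
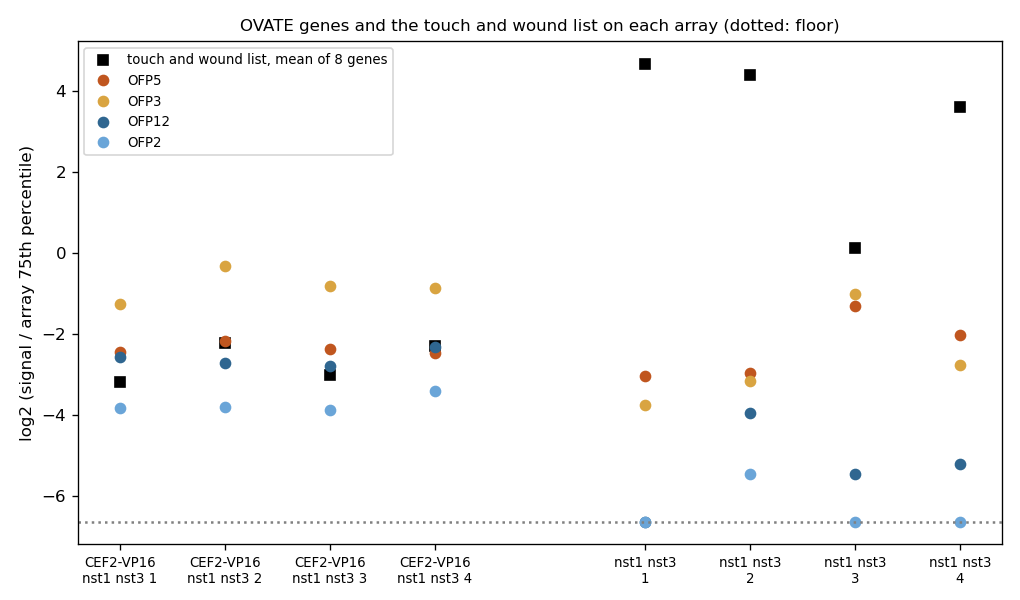
Level of OFP5, OFP3, OFP12 and OFP2 and mean level of the touch and wound list on each array, in log2 units relative to the 75th percentile (vertical axis), with CEF2-VP16 nst1 nst3 arrays at the left; each series is to be read only against itself. On nst1 nst3 array 3 the list is lowest among the nst1 nst3 arrays, at 0.12, and OFP5 and OFP3 are highest, while OFP12 and OFP2 are highest on nst1 nst3 array 2.

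Markers of stem tissues also differed, where 29.5% of all genes were called higher and 24.8% lower. All 4 xylem markers were higher with the construct, with a median difference of 0.61 and up to 1.32 for the protease gene XCP1, and their summed level was 5.07 to 5.28 in CEF2-VP16 nst1 nst3 and 4.01 to 5.0 in nst1 nst3. Of 3 epidermis markers 2 were higher (summed level 2.02 to 2.23 against 1.52 to 1.71), and of 3 phloem markers 1 was higher and 1 lower (4.06 to 4.39 against 4.18 to 4.20). Both green cortex markers were higher, with a summed level of 8.77 to 9.20 in CEF2-VP16 nst1 nst3 and 8.39 to 8.85 in nst1 nst3. Of the shoot apex markers, CLV3 fell by 2.35 ± 0.43 (SE; limma adjusted p = 0.00258) and WUS was not well above background on any array. CLV3 read -6.64, -6.45, -5.31 and -6.64 in CEF2-VP16 nst1 nst3 stems, against -4.83, -4.15, -3.07 and -3.62 in nst1 nst3 stems, so that array 3 was again the highest nst1 nst3 array. Of the floral markers PI, well above background on all 8 arrays, read -1.10 ± 0.56 and did not pass (limma adjusted p = 0.129), and AP3 and AG were not well above background on any array. The root marker RHD6, near the floor, was higher by 0.47 ± 0.12 (limma adjusted p = 0.0106), and COBL9 was well above background on 1 array, with the construct. The seed marker OLEO1 was not well above background on any array and SESA1 on 1, an nst1 nst3 array. Spike-in scaling moved the median difference of all genes to -0.39, from 0.03. For genes above the floor on all arrays it lowered every difference by the same amount, as for TON2, from 0.46 to 0.02. The differences of the epidermis marker ATML1 (0.43), the green cortex marker LHCB1.3 (0.45) and the xylem marker CESA7 (0.49) are about that size. These 3 thus lie near 0 on that scale, while XCP1, at 1.32, differed by more than the shift. Which marker calls hold with spike-in scaling was not tested. The part of these tissues in the OFP values was not tested either.

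Of the other 8 OFP genes in the gene table, OFP9 was not analysed here, and 7 had a probe. OFP11 and OFP18 were too dim for the fit, and 4 of the remaining 5 were higher in CEF2-VP16 nst1 nst3, where 29.5% of all genes were. They were not among the chosen members, so the fit's p-values are given for them. OFP15 (AT2G36050), of class III, read -2.44, -1.51, -2.01 and -1.29 in CEF2-VP16 nst1 nst3 stems, against -4.47, -2.48, -3.42 and -4.26 in nst1 nst3 stems. The genotypes did not overlap, and the difference was 1.84 ± 0.45 (SE; limma adjusted p = 0.00987). OFP3 (AT5G58360) read -1.27, -0.33, -0.83 and -0.86 with the construct, against -3.76, -3.18, -1.01 and -2.78 in nst1 nst3 stems. Array 3 of nst1 nst3 lay within the range of the construct. The difference was 1.86 ± 0.54 (SE; limma adjusted p = 0.0200), or 2.42 without that array. It missed the threshold without CEF2-VP16 nst1 nst3 array 2, at 1.70.

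OFP10 (AT5G22240) was higher by 0.77 ± 0.12 (SE; limma adjusted p = 0.00104) without overlap, and by 0.33 with spike-in scaling, where it did not pass. OFP17 (AT2G30395) was higher by 1.40 ± 0.18 (limma adjusted p = 0.000456), with 3 of its 4 nst1 nst3 values at the floor. In the gene table of assembly TAIR10.1 OFP17 lies directly beside OFP2 on chromosome 2. For both, array 2 was the only nst1 nst3 array above the floor. The same array was also the highest nst1 nst3 array for OFP12 and OFP15. OFP6 (AT3G52525) lay at or near the floor in both genotypes and read 0.06 ± 0.08, which did not pass, while with normexp correction it did, at 0.27. For the 7 members past the threshold, 9 directly neighbouring genes were in the fit. OFP17 was the 1 neighbour called higher and 1 was called lower, where 29.5% of all genes were called higher and 24.8% lower. The other 7 neighbours did not pass and ran from -0.26 to 0.46 log2 units.

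Few genes of the TALE class, which holds partners of the OFPs, passed the test. Of 22 TALE genes 19 were in the fit, and 1 was higher and 3 were lower in CEF2-VP16 nst1 nst3, while 15 did not pass. Over all genes 29.5% were called higher and 24.8% lower. Differences ran from -0.66 to 0.60 with a median of 0.07. KNAT7 (AT1G62990), the partner of OFP1 and OFP4 in secondary wall formation, read 1.39, 1.54, 1.69 and 1.48 in CEF2-VP16 nst1 nst3 stems, against 1.67, 1.63, 1.84 and 1.71 in nst1 nst3 stems. The genotypes overlapped, and the difference of -0.19 ± 0.09 (SE) did not pass (limma adjusted p = 0.113), though it did with spike-in scaling, at -0.63, and with normexp correction, at -0.29. BLH6 (AT4G34610), which joins KNAT7 in repressing REV, read 0.40 ± 0.16 and did not pass either (limma adjusted p = 0.0589), though it did without nst1 nst3 array 2, at 0.56, without arrays 2 and 3, at 0.50, with normexp correction, at 0.52, and with quantile normalization, at 0.44. With spike-in scaling it read -0.04.

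The partners of OFP5 were lower with the construct while OFP5 itself stayed near 0. KNAT3 (AT5G25220) read -0.44, -0.18, -0.26 and -0.49 in CEF2-VP16 nst1 nst3 stems, against 0.01, 0.11, 0.44 and 0.51 in nst1 nst3 stems. It fell by 0.61 ± 0.14 log2 units (SE; limma adjusted p = 0.00623), without overlap. BLH1 (AT2G35940) read 2.53, 2.63, 2.68 and 2.36 with the construct, against 3.20, 2.84, 3.37 and 3.42 without it. It fell by 0.66 ± 0.14 (limma adjusted p = 0.00546), and missed the threshold only with the authors' value table, at -0.64. The other TALE calls were small. KNAT1 (AT4G08150), also BREVIPEDICELLUS, a KNOX factor of stem architecture, was higher by 0.29 ± 0.10 (limma adjusted p = 0.0370), and BLH2 (AT4G36870) fell by 0.28 ± 0.10 (limma adjusted p = 0.0461). In the 8 fits without 1 array the call of KNAT1 was lost in 4 and that of BLH2 in 7. In the 12 other alternative settings the call of KNAT1 was lost in 8 and that of BLH2 in 5. With spike-in scaling KNAT1 read -0.15.

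**Figure D4:**
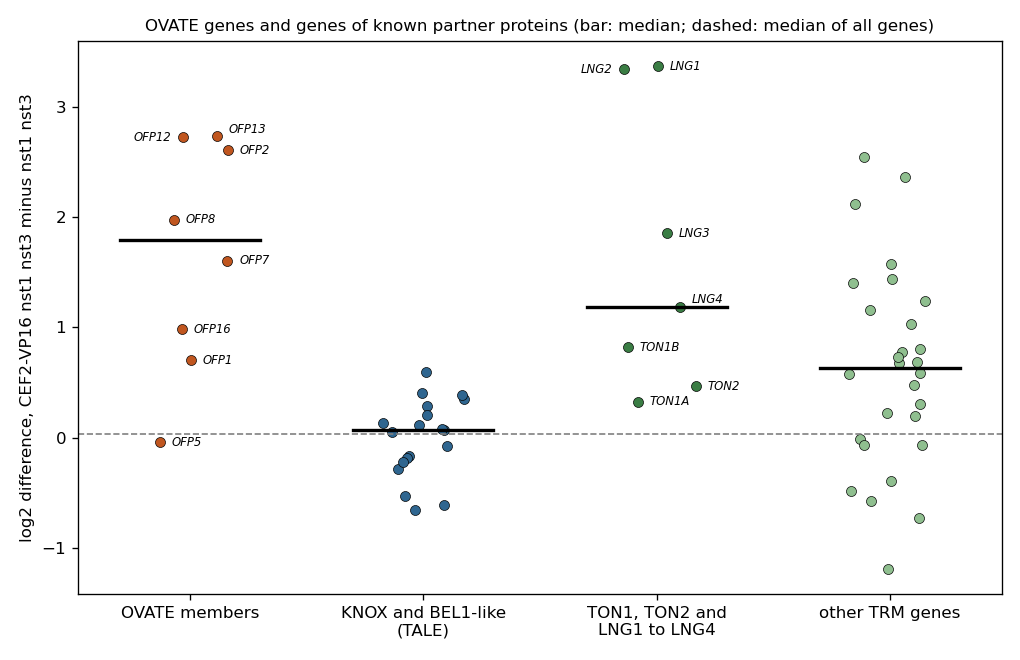
Difference of each gene in the fit, CEF2-VP16 nst1 nst3 minus nst1 nst3 in log2 units (vertical axis), for the OVATE members, the TALE homeodomain genes, the TON1, TON2 and LNG genes and the other TRM genes. Bars are medians, 1.79, 0.07, 1.19 and 0.63 from left to right, and the dashed line is the median of all genes, 0.03; sideways scatter within a column carries no meaning.

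Of the microtubule module that OFPs bind in tomato, a list of 7 genes was read, the 4 LNG genes of the TRM family with TON1A, TON1B and TON2. All 7 were called higher, with a median difference of 1.19, where 29.5% of all genes were. The list was drawn up with earlier results of these data known, so nothing is read from this count. The p-values of its genes come from the same data and are given as a description. Of 28 other TRM genes in the fit 15 were higher, 4 were lower and 9 did not pass. LNG1 (AT5G15580, TRM2), which promotes lengthwise growth of leaf cells, read 0.85, 0.52, 0.46 and 0.76 in CEF2-VP16 nst1 nst3 stems, against -3.55, -1.33, -3.11 and -2.89 in nst1 nst3 stems. The genotypes lay far apart, and the difference was 3.37 ± 0.43 (SE, n = 4 per group; limma adjusted p = 0.000479). LNG2 (AT3G02170, TRM1), which acts together with LNG1, read 1.85, 1.58, 1.61 and 1.82 with the construct, against -2.48, 0.90, -3.18 and -1.73 in nst1 nst3 stems. Array 2 of nst1 nst3 came closest to the construct, and the difference of 3.34 ± 0.78 (limma adjusted p = 0.00767) was 4.18 without it.

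Their relatives LNG3 (AT1G18620, TRM3) and LNG4 (AT1G74160, TRM4) were higher by 1.85 ± 0.30 and 1.19 ± 0.09 (SE; limma adjusted p = 0.00142 and 6.3e-05). Neither overlapped between the genotypes. The core genes, named after their values were seen, had smaller differences. TON1B (AT3G55005) was higher by 0.82 ± 0.13, TON2 (AT5G18580) by 0.46 ± 0.09 and TON1A (AT3G55000) by 0.33 ± 0.12 (SE; limma adjusted p = 0.00131, 0.00404 and 0.04995, the last just under the threshold). TON1A lost its call in 6 of the 8 fits without 1 array and in 9 of the 12 other alternative settings. With spike-in scaling 5 of the 7 were called higher, where 10.7% of all genes were, and TON1A read -0.12 and TON2 0.02.

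Of 5 gibberellin 20-oxidase genes only GA20OX1 (AT4G25420), the target that OFP1 represses, was in the fit. It read 0.07, 0.19, 0.78 and -0.27 in CEF2-VP16 nst1 nst3 stems, against -1.46, -0.75, 0.96 and 0.12 in nst1 nst3 stems. The genotypes overlapped and nst1 nst3 array 3 was again the highest of its genotype. The difference of 0.48 ± 0.50 (SE) did not pass (limma adjusted p = 0.443). Of 4 further genes tied to the KNAT7 complex or to OFP1, 1 was higher and 1 lower, where 29.5% of all genes were called higher and 24.8% lower. REV (AT5G60690), the HD-ZIP III gene repressed by KNAT7 and BLH6, was higher by 0.61 ± 0.09 (limma adjusted p = 0.00104), or by 0.17 and not past the threshold with spike-in scaling. KU70 (AT1G16970), a DNA repair protein, fell by 0.35 ± 0.11 (limma adjusted p = 0.0236). It lost that call in 5 of the 8 fits without 1 array and in 4 of the 12 other alternative settings. MYB75 (AT1G56650), an anthocyanin regulator that binds KNAT7, read -1.30 ± 0.52 and did not pass (limma adjusted p = 0.0631), but it did without nst1 nst3 array 3, at -1.67, and without CEF2-VP16 nst1 nst3 array 4, at -1.60. It also passed with spike-in scaling, at -1.74, and with the authors' value table, at -1.28.

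Likeness of profile was measured as the root mean square distance over the 8 arrays, each gene centred on its own mean. Nearest to OFP13, whose fitted difference was highest with the 75th percentile, were AT4G19700, AT1G09812 and MYB16 (AT5G15310), each at a distance of 0.33 log2 units. Among the other members OFP8 was nearest to OFP13, at 0.51. Nearest to OFP5, the only member in the fit with a difference below 0, were AT2G36950 at 0.09, AT4G31330 at 0.13 and WAVH1 (AT2G22680) at 0.16. The distance grows with the size of a gene's changes over the arrays, so values for OFP5 and OFP13 are not to be compared. None of the other members came nearer to OFP5 than 0.60, the distance of OFP1.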

How the data were processed

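Feature Extraction 11.5.1.1 (Agilent) produced the deposited intensity values with a TAIR10 grid, per the file headers, while the submitters' processing notes name version 9.1.3.1. The deposited processed signal is a background-corrected, linear intensity. The authors' value table, used as an alternative, holds natural log values equal to the natural log of that signal minus a constant, 7.15 for CEF2-VP16 nst1 nst3 arrays and 7.39 for nst1 nst3 arrays. Its column medians ran from -1.23 to -0.84 and from -1.26 to -1.05, and the sources used here do not state how the constants were chosen.

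Each array was scaled to its 75th percentile over 43603 non-control probes, and values were set to a floor of 0.01 and log2-transformed. Spots marked as outliers were left out where the probe had an unmarked spot. Where all spots of a probe were marked, as for a marked single spot, they were kept. A probe entered the fit if well above background on at least 4 of 8 arrays, and the brightest probe stood for a gene. Probes were named by RefSeq accession, without version, in the table of assembly TAIR10.1 (34348 of 43603 matched). No coordinates or sequences are given. limma 3.58.1 in R 4.3.3 compared the genotypes without covariates, with Benjamini-Hochberg adjustment over all genes and a threshold of 0.05, and the fit was tested on simulated data. Members, lists and tests were chosen with earlier results of these data known, so the p-values of list genes are descriptive. Named genes are the 10 members, all other OFPs, 7 partners fixed by name and up to 4 called genes of each partner list by size.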

Additional observations from a re-analysis of the deposited data

Results flagged for a closer look

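In groups of 4 arrays, Dixon's test compares the gap between an extreme array and its neighbour with the whole range of the group. Of 70 groups checked, 9 exceeded Dixon's critical value, and chance gives about 1 in 20. In 3 of the 9, the other 3 arrays lay at the floor of the scale, so that a single value above the floor sufficed: OFP2 at -5.46 on nst1 nst3 array 2, OFP17 at -6.05 on the same array and OFP14 at -6.21 on nst1 nst3 array 4. OFP6 stood at -6.40 on CEF2-VP16 nst1 nst3 array 3, close to the floor. OFP2 read -3.42 on CEF2-VP16 nst1 nst3 array 4, above the other arrays of its genotype. On CEF2-VP16 nst1 nst3 array 1 OFP10 was low at -2.25 and TON1A low at -0.27. On nst1 nst3 array 2 LNG3 was high at -2.35 and KU70 low at -1.20.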

How the results depend on the processing

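Over 20 alternatives, 7 members lay past the threshold in all but 2: 5 with spike-in scaling, and 4 when a probe had to be above background on all arrays, which leaves fewer members in the fit and a median member difference of 0.98. Spike-in scaling gave 2100 genes higher and 7851 lower, and the authors' value table gave 2981 lower. TALE genes called higher numbered 2 with normexp correction or without nst1 nst3 arrays 2 and 3. They numbered 0 in limma with scaling by the median, spike-in scaling, the value table, the mean of a gene's probes or the replicate block, and 0 to 3 without 1 array. At an unadjusted p under 0.05 the settings with 0 held 0 to 3. TALE genes called lower numbered 6 with spike-in scaling, where 40.0% of all genes were called lower. They numbered 1 with the value table and 2 to 3 without 1 array. With spike-in scaling KNAT1 read -0.15 and TON1A -0.12, the reverse of their signs with the 75th percentile. OFP7 read 4.03 and OFP2 3.59 with a floor of 0.001, since less was set to the floor. The cause of the other shifts was not tested. Replicate numbers did not pair the arrays: deviations of arrays with the same number correlated at -0.40 to 0.16. With the replicate block 4715 genes were higher and 3904 lower, and 7 members stayed past the threshold. Members at the floor are limited by signal over background.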

Other observations

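After the values of LNG1 to LNG4 had been seen, the rest of the TRM family, the proteins that recruit TON1 to microtubules, was read from the gene table. Of the other 30 TRM genes, 28 were in the fit, and 15 were higher and 4 lower in CEF2-VP16 nst1 nst3, with a median difference of 0.63. The same threshold called 29.5% of all genes higher and 24.8% lower. With spike-in scaling 9 of these 28 TRM genes were higher and 5 lower. On that scale 10.7% of all genes were called higher and 40.0% lower. TRM25 (AT5G62170) was higher by 2.55 ± 0.30 (SE, n = 4 per group; limma adjusted p = 0.000325), TRM22 (AT1G67040) by 2.36 ± 0.24 and TRM28 (AT5G03670) by 2.12 ± 0.28. In the other direction TRM32 (AT1G07620), whose genotypes overlapped, read -1.19 ± 0.41. TRM16 (AT5G02390) read -0.73 ± 0.10, with 2 of its 4 CEF2-VP16 nst1 nst3 values at the floor. Its processed signals were 20.6 to 27.3 units with the construct and 46.3 to 72.3 units without it. Because this set of TRM genes was added after seeing part of it, its counts and p-values are a description.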
